A study of Mus musculus with 16 samples.

Results

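The 10 immediate early genes described here are Fos, Fosb, Jun, Junb, Egr1, Atf3, Ier2, Nr4a1, Dusp1 and Zfp36. They were taken by symbol from a mouse kidney gene table of 57186 genes. No cut on their values was used, but the set was chosen with earlier results of these data known. Each symbol had 1 entry, and all 10 were among the 25408 genes with at least 100 counts summed over the 16 libraries, which were the genes tested.

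Kidney RNA was sequenced from male mice on a C57BL/6J background, with 4 libraries in each of 4 labelled groups. Every group, the controls included, carried Elmo1H/H, an allele pair that raises Elmo1 expression above normal in the whole animal, so no library shows a kidney with normal Elmo1. The diabetic groups also carried Ins2 Akita/+, a proinsulin mutation that damages the insulin-producing cells of the pancreas, and the non-diabetic groups were Ins2 +/+. Vitamin B12 was given in the drinking water at 10 mg/kg per day from 8 weeks of age. The kidneys were taken at 16 weeks of age. After a short fast, the mice were anesthetized with isoflurane, bled from the retro-orbital vein and killed by cervical dislocation. The tissue was then kept in an RNA preservative. The groups are named ND_C (non-diabetic, untreated), ND_B12 (non-diabetic, B12), D_C (diabetic, untreated) and D_B12 (diabetic, B12). The methods give 8 weeks of B12 and the labels give 16 weeks. The comparisons ask whether B12 changed kidney expression in diabetic and in non-diabetic mice, and what diabetes changed without and with B12.

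Depth ran from 65271308 to 91771136 counts per library, and no pair of libraries had identical values. Elmo1 had a mean of 331 to 387.8 normalized counts in the 4 groups, and it checks no label because every group carries the same Elmo1 alleles. Group means given by the study, over 175 genes, were matched by other sets of these libraries than the labelled ones: its untreated diabetic means by the 4 libraries labelled D_B12, and its B12-treated diabetic means by D_C 2, D_C 3, D_C 4 and ND_B12 4. Its untreated non-diabetic means were matched by ND_C 1, ND_C 2, ND_C 4 and ND_B12 1, and its B12-treated non-diabetic means by ND_C 3, ND_B12 2, ND_B12 3 and D_C 1. Every group and direction below is that of the labels, no library was moved, and every comparison, ND_B12 minus ND_C included, depends on which assignment is right. No label date was shared between D_C and D_B12, between D_C and ND_C or between D_B12 and ND_B12, so within a date these groups cannot be compared. The labels do not say that the numbers of the libraries pair animals, and p-values measure the spread between these libraries.

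Immediate early genes are switched on within minutes when a cell receives a growth factor, a stress or a neural or hormonal signal, without new protein being needed first. MAP kinases and cAMP signalling act on factors already bound at their promoters, among them SRF with its ETS-family partners and CREB. FOS, FOSB, JUN and JUNB pair to form the transcription factor AP-1, ATF3 pairs with JUN proteins and joins the stress response, and EGR1 and the orphan nuclear receptor NR4A1 are transcription factors of their own. IER2 is a small nuclear protein of the same early wave. DUSP1 dephosphorylates MAP kinases and ZFP36 marks AU-rich mRNAs for decay, so both limit the response. In kidney, handling, blood loss and ischemia are well known to raise these mRNAs.

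Per kilobase of exon, the 2 feedback genes and the JUN genes held the highest levels. Dusp1 had 15.2 ± 3.73 CPM per kb (counts scaled to a common library total, CPM, and divided by the joint length of all exons of the gene; mean ± SD, n = 16), and was above Jun in every library. Jun followed with 9.17 ± 2.41 CPM per kb and Zfp36 with 8.82 ± 2.25 CPM per kb, and Jun was above Zfp36 in 9 of 16 libraries, so these neighbours were not separated. Junb had a level of 5.96 ± 1.30 CPM per kb, Ier2 of 4.12 ± 1.01 CPM per kb and Egr1 of 2.36 ± 1.19 CPM per kb. The lowest 4 were Fos at 0.557 ± 0.211, Atf3 at 0.318 ± 0.111, Nr4a1 at 0.273 ± 0.0896 and Fosb at 0.0670 ± 0.0251 CPM per kb. Atf3 was above Nr4a1 in 11 of 16 libraries, again without separation, whereas the other neighbours kept their order in 14 to 16 libraries. Per kilobase, Jun and Junb were thus far more abundant than Fos and Fosb, and levels of other JUN and FOS genes were not compared. Counts behind these levels, summed over the 16 libraries, ran from 536 for Fosb to 64726 for Dusp1. The exon length of Nr4a1 takes in 29 annotated transcripts, most of them barely used, which lowers its level per kilobase. This joint length is 10903 bases, where its most counted transcript has 2548, so its place below Fos and Atf3 depends on the length used. For Fosb the 2 lengths are 6243 and 3782 bases.

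**Figure D1:**
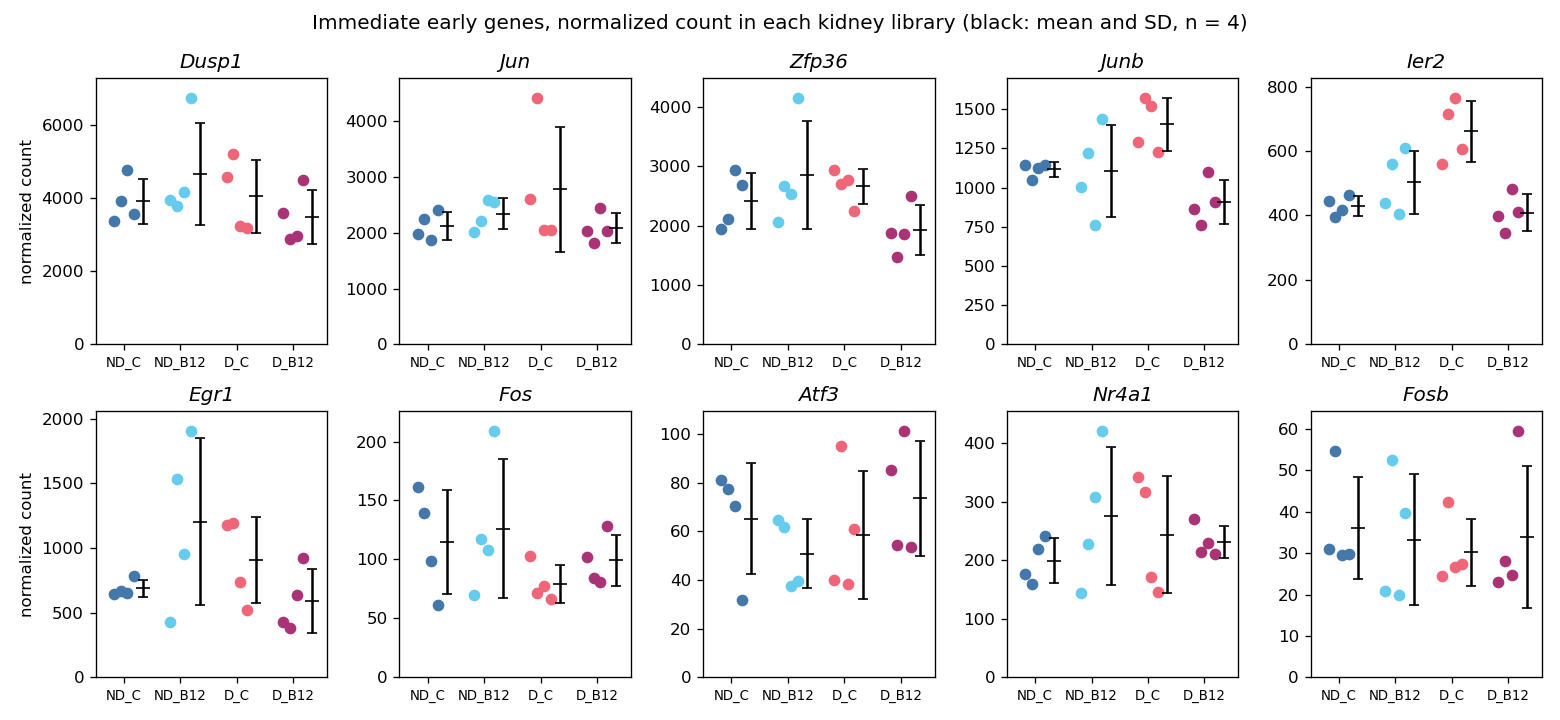
Normalized count (y axis from 0, counts divided by the library's size factor) of each of the 10 genes in the 4 labelled groups (x axis); each point is 1 library, and black marks are the group mean and SD (n = 4). Ier2 and Junb in D_C lie above all ND_C and all D_B12 libraries, whereas Egr1 in ND_B12 spans 426 to 1904.

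Ier2 showed the clearest difference between labelled groups. Its normalized counts were 446, 394, 418 and 465 in ND_C 1 to 4, and 438, 559.8, 404 and 609 in ND_B12 1 to 4. They were 558, 716, 764 and 607 in D_C 1 to 4 and 399, 346, 482 and 409 in D_B12 1 to 4. All 4 D_C libraries were above all ND_C and all D_B12 libraries, and the other 3 groups overlapped. Of the variation of log2 CPM between libraries, 68.2% lay between groups for Ier2, against a median of 27.3% over all genes tested.

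Junb, the JUN protein that often restrains JUN within AP-1, was also highest in D_C and lowest in D_B12, with similar means in ND_C and ND_B12. Its normalized counts were 1145, 1049, 1124 and 1145 in ND_C, and 1001, 1223, 761 and 1439 in ND_B12. They were 1291, 1571, 1519 and 1230.2 in D_C and 865, 762, 1097 and 906 in D_B12. The D_C libraries again lay above every ND_C and every D_B12 library, and ND_B12 covered most of the range of the others. Jun did not separate any groups, and 1 library decided its highest mean: D_C 2 had 4419 normalized counts where the other 15 libraries ran from 1820.2 to 2616.

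Fos and Fosb, the FOS-side partners, were low and scattered. Fos ran from 61.4 (ND_C 4) to 209 (ND_B12 4) normalized counts. Its mean was 115 ± 44.2 in the ND_C and 126 ± 58.9 in the ND_B12 libraries, and 79.3 ± 16.1 in the D_C and 99.1 ± 21.9 in the D_B12 libraries (SD, n = 4). Fosb had group means between 30.2 and 36.2 normalized counts, with 16 to 55 raw counts per library, a depth at which modest differences were not detectable. Atf3, the stress-responsive partner, had group means of 50.7 to 73.6 normalized counts and 30 to 110 raw counts per library. All groups overlapped for these 3 genes.

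Egr1, which responds to growth factors and vascular stress, differed most between libraries. Its normalized counts were 644, 667, 652 and 782 in ND_C, a narrow range, and 426, 1529.6, 956 and 1904 in ND_B12. They were 1178, 1196, 733 and 523 in D_C and 426, 379, 637 and 924 in D_B12. The highest library had 5.02 times the count of the lowest, the widest span of the 10 genes, and the 3 groups other than ND_C each spread over a wide range. Nr4a1 had means of 199 ± 38.0 (ND_C), 275 ± 118 (ND_B12), 244 ± 99.7 (D_C) and 231 ± 27.8 (D_B12) normalized counts (SD, n = 4), with all groups overlapping.

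Of the 2 feedback genes, Zfp36 had its lowest group mean in D_B12. Its normalized counts were 1939.7, 2116, 2937 and 2676 in ND_C, 2053, 2667, 2531 and 4146 in ND_B12. They were 2931, 2697, 2766 and 2251 in D_C, and 1880 in D_B12 1, 1474 in D_B12 2, 1855 in D_B12 3 and 2494 in D_B12 4. The D_B12 libraries lay mostly below the others, with D_B12 4 inside their range. Dusp1 had means of 3906 ± 619.95 (ND_C), 4657 ± 1392 (ND_B12), 4048 ± 1001 (D_C) and 3484 ± 745 (D_B12) normalized counts (SD, n = 4), and all groups overlapped.

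Within diabetic kidneys, the libraries labelled D_B12 had lower values than those labelled D_C for 7 of the 10 genes, led by Ier2 and Junb, and no gene passed the test. Ier2 had a log2 fold change (D_B12 minus D_C) of -0.69 with an SE of 0.14, or 0.619 times the D_C level, and an adjusted p of 0.0783 by edgeR. Junb had a log2 fold change of -0.63 with an SE of 0.16 and an edgeR adjusted p of 0.109. None of the 10 passed an adjusted p of 0.05 in edgeR, which called 0% of all genes tested, with 3468 genes at an unadjusted p below 0.05. DESeq2 on the same counts called 670 genes and gave adjusted p-values of 0.000996 for Ier2 and 0.00788 for Junb, the 2 members among them. At an unadjusted p of 0.05, 4 of 10 were lower, against 7.21% of all genes tested. Besides Ier2 and Junb these were Zfp36 with -0.47 (SE 0.20, edgeR adjusted p 0.311) and Jun with -0.42 (SE 0.19, edgeR adjusted p 0.362), which was -0.094 without D_C 2. For 2 of the 10, Ier2 and Junb, every D_B12 library was below every D_C library, as for 3.18% of all genes tested. Egr1 had a log2 fold change of -0.62 with an SE of 0.38, and its groups overlapped. Fos at 0.32 (SE 0.32) and Atf3 at 0.34 (SE 0.34) had values of the opposite sign. With 1 library left out, Fos ran from 0.17 (without D_B12 4) to 0.48 (without D_C 1) and Atf3 from 0.14 (without D_B12 3) to 0.68 (without D_C 2). The median over the 10 genes was -0.32, beside -0.00 over all genes tested.

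The mitochondrial share of counts moved with the same labels. It was 12.4% to 13.1% in D_B12 and 8.35% to 11.8% in D_C, with all D_B12 libraries above all others, and its part in these differences was not tested. The summed level of 12 leukocyte markers was 18.7 to 21.6 CPM in D_B12 and 19.7 to 28.8 CPM in D_C, with overlap. In bulk samples, fewer cells of a type and less RNA per cell cannot be told apart.

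Between libraries labelled non-diabetic, none of the 10 genes was separated by the B12 label. Egr1 had the largest log2 fold change (ND_B12 minus ND_C) at 0.82 with an SE of 0.38, from 687 ± 64.5 to 1204 ± 649 normalized counts (SD, n = 4), and an edgeR adjusted p of 0.646. Of the 4 ND_B12 libraries, 3 were above all ND_C libraries and ND_B12 1 was below all of them. The 7 genes with positive values included Nr4a1 at 0.47 (SE 0.30), Dusp1 at 0.26 (SE 0.20), Zfp36 at 0.24 (SE 0.20) and Ier2 at 0.23 (SE 0.14), and without ND_B12 4 the values of Egr1, Nr4a1, Dusp1, Zfp36 and Ier2 were 0.50, 0.18, 0.024, 0.0017 and 0.12. Junb at -0.01 (SE 0.16) had nearly the same mean in both groups. Egr1 alone had an unadjusted p below 0.05 among the 10, against 3.67% of all genes tested that did so in the higher direction. Again edgeR called 0% of all genes tested, with 1937 genes at an unadjusted p below 0.05 and 6 genes called by DESeq2, none of them among the 10.

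Between libraries labelled untreated, Ier2 was higher in those labelled diabetic. It was the only 1 of the 10 to pass the test, where 1.66% of all genes tested passed. Its log2 fold change (D_C minus ND_C) was 0.62 with an SE of 0.14, a 1.54-fold difference from 431 ± 31.2 to 661 ± 95.1 normalized counts (SD, n = 4), with an edgeR adjusted p of 0.0443. The call was near the threshold: it held in 11 of 24 alternative fits, with an adjusted p of 0.00177 in DESeq2 and, at a value of 0.44, 0.432 once label date was a term of the edgeR fit. Leaving out any of the ND_C libraries, D_C 2, D_C 3, D_C 4, D_B12 2, D_B12 4 or ND_B12 2 also ended it (adjusted p 0.0509 to 0.133), while its value stayed between 0.54 and 0.68. Junb had 0.33 with an SE of 0.16 and an edgeR adjusted p of 0.270. For these 2 of the 10, every D_C library was above every ND_C library, as for 4.86% of all genes tested. Jun at 0.39 (SE 0.19) rested on D_C 2, without which it was 0.074, and Egr1 at 0.40 (SE 0.38) overlapped between groups and was 0.24 without D_C 1 or without D_C 2. Fos had the most negative value, -0.53 with an SE of 0.32, or -0.33 without ND_C 1. At an unadjusted p of 0.05, only Ier2 of the 10 was higher, against 9.31% of all genes tested, and the median over the 10 was 0.21, beside -0.00 over all genes tested.

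Vascular markers also differed between D_C and ND_C. The summed level of 8 endothelial and vascular smooth muscle markers was 322 to 371 CPM in D_C and 263 to 295 CPM in ND_C, with no overlap, and all 8 had positive log2 fold changes with a median of 0.33, led in abundance by Kdr at 0.30 (SE 0.08). None of the 8 passed the test. Their summed level was 273 to 360 CPM in D_B12, where Ier2 had its lowest group mean, and 282 to 355 CPM in ND_B12. Their part in the difference of Ier2 was not tested.

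Between libraries labelled B12-treated, 8 of the 10 genes had negative values in those labelled diabetic (for Fos and Nr4a1 near 0 without ND_B12 4). Fosb was at -0.00 with a sign that turned in 16 of 24 alternative fits. None of the 10 passed the test, where 0.823% of all genes tested passed. Egr1 had a log2 fold change (D_B12 minus ND_B12) of -1.04 with an SE of 0.38, or 0.488 times the ND_B12 level, with an edgeR adjusted p of 0.176. Zfp36 had -0.57 with an SE of 0.20 and an edgeR adjusted p of 0.152. These 2 of 10 had an unadjusted p below 0.05 in the lower direction, against 9.2% of all genes tested. Both rested in part on ND_B12 4, without which Egr1 was -0.72 and Zfp36 was -0.33. Dusp1 at -0.42 (SE 0.20), Ier2 at -0.30 (SE 0.14) and Junb at -0.29 (SE 0.16) had smaller values, which without ND_B12 4 were -0.19, -0.19 and -0.14. Atf3 had a positive value, 0.53 with an SE of 0.35, or 0.34 without D_B12 3. The median over the 10 was -0.30, beside 0.00 over all genes tested.

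The interaction asks whether the difference between B12 and control differed between diabetic and non-diabetic kidneys. Ier2 had an interaction of -0.92 on the log2 scale with an SE of 0.20 and an edgeR adjusted p of 0.0618, so it did not pass, and DESeq2 gave an adjusted p of 0.00177. Egr1 had the largest value, -1.44 with an SE of 0.53 and an edgeR adjusted p of 0.198. Zfp36 followed with -0.71 (SE 0.28), or -0.47 without ND_B12 4, and Junb with -0.62 (SE 0.22). These 4 of 10 had an unadjusted p below 0.05 in the negative direction, against 8.1% of all genes tested, while edgeR called 0% of all genes, with 4093 at an unadjusted p below 0.05 and 943 called by DESeq2. The median over the 10 was -0.55, beside -0.00 over all genes tested. In the average over both treatments, no member passed for diabetes, where 3.02% of all genes tested passed, and none passed for B12 over both genotypes, where 0% did, with 1321 genes at an unadjusted p below 0.05 in edgeR and 6 called by DESeq2. These comparisons share groups, so they are not separate evidence. A high mean in D_C raises D_C minus ND_C and lowers both D_B12 minus D_C and the interaction. It also enters both averages.

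**Figure D2:**
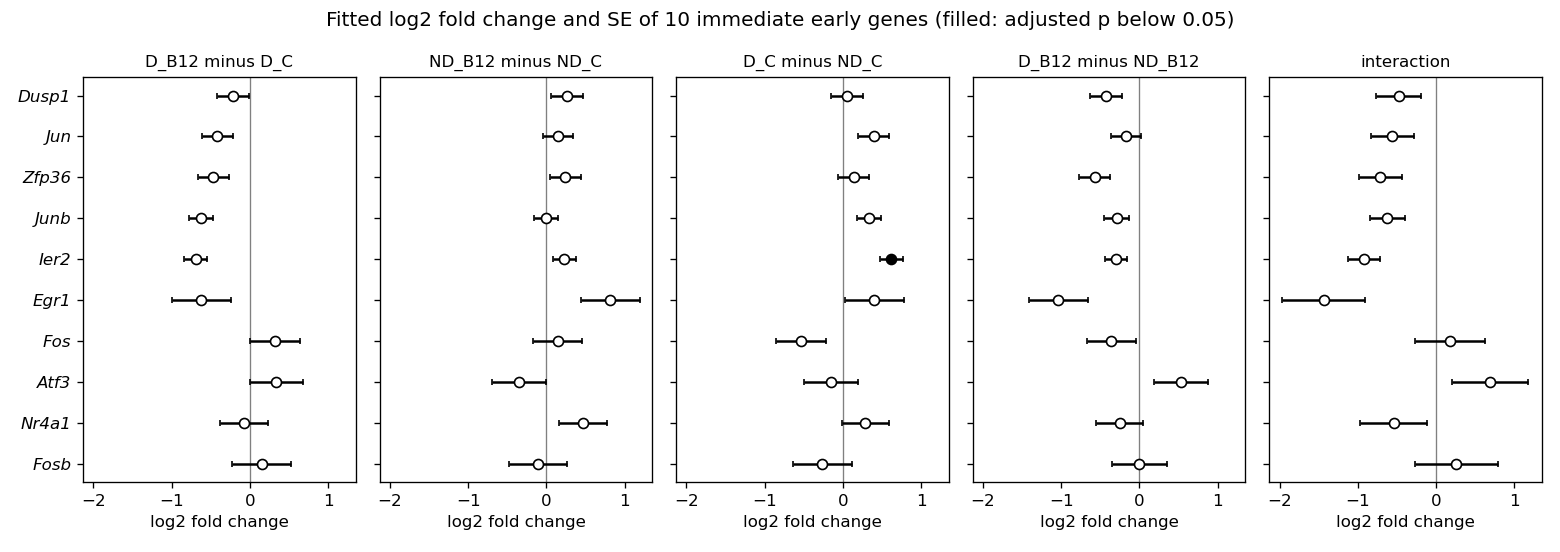
Fitted log2 fold change (x axis) of the 10 genes (rows, ordered by level per kilobase) in the 4 simple comparisons and the interaction; bars are the SE and filled points have an edgeR adjusted p below 0.05. The single filled point is Ier2 in D_C minus ND_C at 0.62.

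The genes varied more between libraries of 1 labelled group than most genes of their abundance. Like the comparisons, this spread, and the deviations and correlations centred on the labelled groups, depend on which assignment is right. ND_B12 1 and ND_B12 4, which held extremes of Egr1, are among the libraries that the study's means placed in other groups. The biological coefficient of variation, edgeR's estimate of the relative spread between replicates, was 0.368 for Egr1 against 0.156 expected from the trend at its abundance, 0.204 for Dusp1 against 0.113 and 0.197 for Zfp36 against 0.119. It was above the trend for 8 of the 10 genes, with Ier2 (0.152 against 0.187) and Fosb (0.344 against 0.350) the exceptions, and Egr1 lay at the 97.6th percentile of all genes tested by its ratio to the trend.

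A few libraries held the extremes. ND_B12 4 had the highest value of all 16 libraries for 5 of the 10 genes (Dusp1, Zfp36, Egr1, Fos and Nr4a1), and D_C 2 for Jun and Junb. D_B12 2 had the lowest value for 5 of the 10 (Dusp1, Jun, Zfp36, Ier2 and Egr1). Within its own group, ND_B12 4 and D_C 2 were each above the group mean for 9 of 10 genes, ND_B12 1 and D_C 4 for 1, and D_B12 2 for none. ND_B12 1 carried the same label date as ND_C 4, and ND_B12 4 the same as ND_B12 2, ND_B12 3 and D_C 1.

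**Figure D3:**
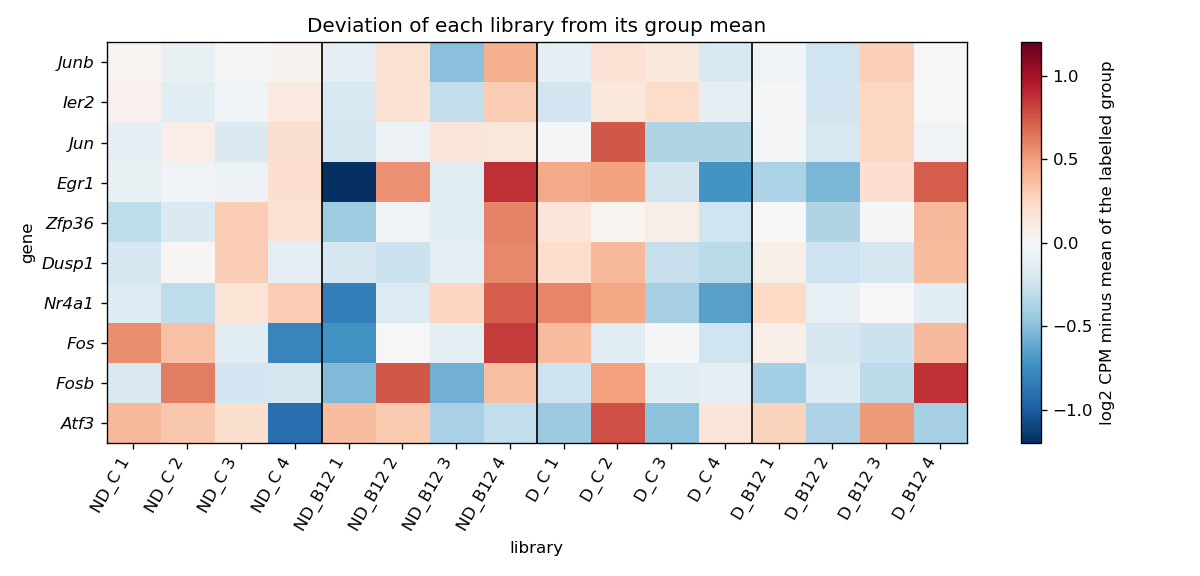
Deviation of log2 CPM from the mean of the labelled group (colour, red above and blue below) for the 10 genes (rows) in 16 libraries (columns, groups divided by black lines). ND_B12 4 is red for 9 of 10 genes and D_B12 2 is below its group mean for all 10, whereas Atf3 departs from the shared pattern.

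The same genes tended to be high in the same libraries. After subtracting each group's mean, the 45 pairs of the 10 genes had a median Pearson's r of 0.37 (Spearman's rho 0.32) over the 16 libraries, and 41 pairs were positive, beside a median of 0.006 between the 10 genes and all other genes tested. The points share their library, so these are descriptions. With 1 library left out at a time, the median stayed between 0.27 and 0.44. Dusp1 and Zfp36, the feedback genes, had an r of 0.78 (rho 0.69), Egr1 and Zfp36 had 0.77 (rho 0.69) and Egr1 and Nr4a1 had 0.70 (rho 0.54). Without the libraries farthest from the median for Egr1, ND_B12 1 and ND_B12 4, the last value was 0.45. Atf3 stood apart, with a median r of 0.02 with the other 9 genes and -0.37 with Zfp36.

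Ier2 and Junb were the closest pair, with an r of 0.93 and a rho of 0.96 after removal of the group means, and r stayed between 0.91 and 0.95 with any library left out. Of all genes tested, each was the other's most correlated gene. Both lie on the minus strand of chromosome 8, Ier2 at chr8:85387960-85389483 and Junb at chr8:85701113-85705359 (GRCm39), 311.629 kb apart with 27 annotated genes between them, 17 of them protein-coding. Both most counted transcripts are a single exon, and that of Ier2 overlaps no other gene. The Junb transcript that received 99.5% of the gene's transcript counts shares 77 of its 1809 exon bases with an opposite-strand noncoding RNA, Gm65321, and none with Prdx2, which overlaps a rarely counted Junb transcript.

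**Figure D4:**
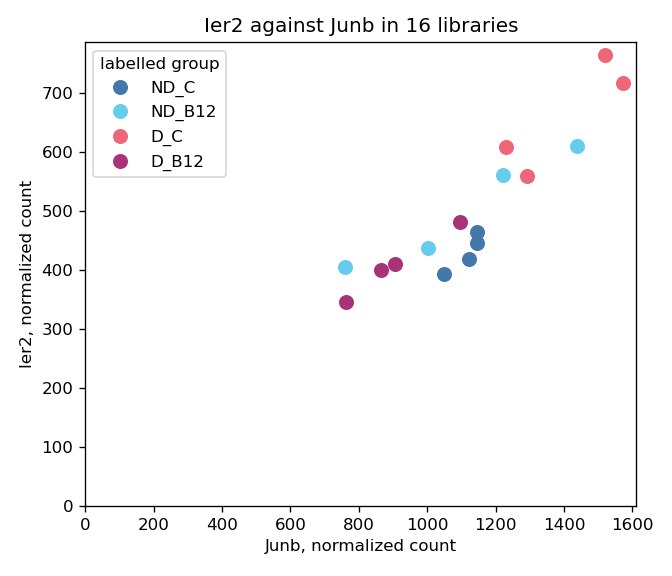
Normalized count of Ier2 (y axis) against Junb (x axis), both from 0, with 1 point per library coloured by labelled group. Both counts rise together over the 16 libraries, with the D_C libraries at the upper end and D_B12 2 at the lower.

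Among 16064 other genes with a mean of at least 1 CPM, those whose group-centred level most resembled the mean of the 10 were Gpsm2 (r 0.85), Dclre1b (0.82), Ppil6 (0.82), Gm29696 (0.81), Pim2 (0.81), Mrps9 (0.81), Gm49654 (0.80), Yod1 (0.79), Rhbdf2 (0.79) and Cpne7 (0.79) over 16 libraries. None of them passed the test in the 4 simple comparisons. Of the related genes listed further on, the small MAF proteins Maff and Mafk, which pair with AP-1 factors, were the highest, at ranks 40 and 48 with r of 0.74 and 0.73. Their list did not move as a whole: Mafg lay at rank 11909 (r -0.24), Atf1 at 15172 (r -0.54) and Atf2 at 15359 (r -0.57).

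Promoter sequence was read for 8 of the 10 genes from RefSeq (GRCm38.p6), from 250 bases before to 50 after the gene start. Of the others, Ier2 had no entry and Egr1 was not analysed here. The 4 shown are those of Junb, of the correlated feedback pair Dusp1 and Zfp36, and of Fos, the classic model of the family. Capitals mark matches to the motifs searched: the CArG box by which SRF binds, the cAMP response element TGACGTCA, its core TGACG (which also lies inside TGACGTCA), and the TATA box TATAAA, on either strand.
Junb, chr8:84978699-84978998, minus strand: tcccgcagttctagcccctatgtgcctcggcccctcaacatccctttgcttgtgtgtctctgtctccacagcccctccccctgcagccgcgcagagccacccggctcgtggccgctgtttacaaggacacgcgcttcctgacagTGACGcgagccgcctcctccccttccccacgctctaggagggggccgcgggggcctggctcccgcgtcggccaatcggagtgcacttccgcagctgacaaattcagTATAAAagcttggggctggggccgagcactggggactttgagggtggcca
Fos, chr12:85473640-85473939, plus strand: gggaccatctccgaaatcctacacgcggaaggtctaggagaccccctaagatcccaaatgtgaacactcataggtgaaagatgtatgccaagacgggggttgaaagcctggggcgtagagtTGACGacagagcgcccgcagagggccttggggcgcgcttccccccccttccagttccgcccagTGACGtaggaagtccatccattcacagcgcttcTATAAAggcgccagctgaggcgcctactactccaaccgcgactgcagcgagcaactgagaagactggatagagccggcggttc
Dusp1, chr17:26508423-26508722, minus strand: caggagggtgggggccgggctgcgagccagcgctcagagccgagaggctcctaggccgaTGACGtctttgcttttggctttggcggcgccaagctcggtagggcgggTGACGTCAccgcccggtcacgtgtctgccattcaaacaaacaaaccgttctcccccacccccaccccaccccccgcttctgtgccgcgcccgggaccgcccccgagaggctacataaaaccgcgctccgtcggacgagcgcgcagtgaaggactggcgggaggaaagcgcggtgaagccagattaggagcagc
Zfp36, chr7:28379179-28379478, minus strand: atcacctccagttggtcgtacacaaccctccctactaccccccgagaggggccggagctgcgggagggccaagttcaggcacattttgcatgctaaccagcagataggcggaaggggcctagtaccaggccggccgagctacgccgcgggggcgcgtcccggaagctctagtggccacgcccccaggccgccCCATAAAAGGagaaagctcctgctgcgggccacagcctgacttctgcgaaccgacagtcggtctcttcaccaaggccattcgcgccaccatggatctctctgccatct

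TGACG was present in 6 of 8 promoters (Atf3, Fosb, Junb, Fos, Nr4a1 and Dusp1), and in 20.8% of all 32851 promoters of the same length. The full TGACGTCA lay in Dusp1 alone, 143 bases before the start, and in 1.79% of all promoters. A CArG box lay in Zfp36 alone, 58 bases before the start, and in 1.63% of all promoters. TATAAA was found in Junb and Fos (13.6% of all), beginning 33 bases before the start in Fos but at the annotated start itself in Junb. The ETS core CCGGAA, which is not capitalised, was found in Zfp36 and Nr4a1 (14.9% of all). The AP-1 element TGAGTCA or TGACTCA was in none of the 8 windows (5.20% of all). The co-varying pair Dusp1 and Zfp36 shared none of these motifs in this window. A match is letters only, and response elements outside the window were not searched.

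The transcript table showed which form of each gene the counts were assigned to. Ier2, Egr1 and Atf3 had counts on a single transcript each, and Zfp36 kept a steady split, with 59.7% to 75.3% on its most counted transcript. Dusp1 had 65.95% of its transcript counts on a form with a retained intron, ENSMUST00000126178, and this share ran from 27.3% to 91.6% between libraries. Nr4a1 had 63.7% on ENSMUST00000023779, which starts at 101164660 on chromosome 15, and 29.3% on ENSMUST00000228985, which starts upstream at 101151980 (GRCm39). The upstream form took 49.2% to 92.7% of Nr4a1 counts in 6 libraries (ND_C 4, ND_B12 2, D_C 2, D_C 3, D_C 4 and D_B12 2) and 0 to 18.6% in the other 10. In the same 6 libraries the retained-intron share of Dusp1 was 27.3% to 44.6%, and in the other 10 it was 50.2% to 91.6%. The split of the libraries was seen in the data and not planned, and it crosses all 4 groups. Jun's second form, which has the same ends, took 0 to 42.4%. These are StringTie's estimates from short reads, and gene counts in all tests above sum over the forms.

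**Figure D5:**
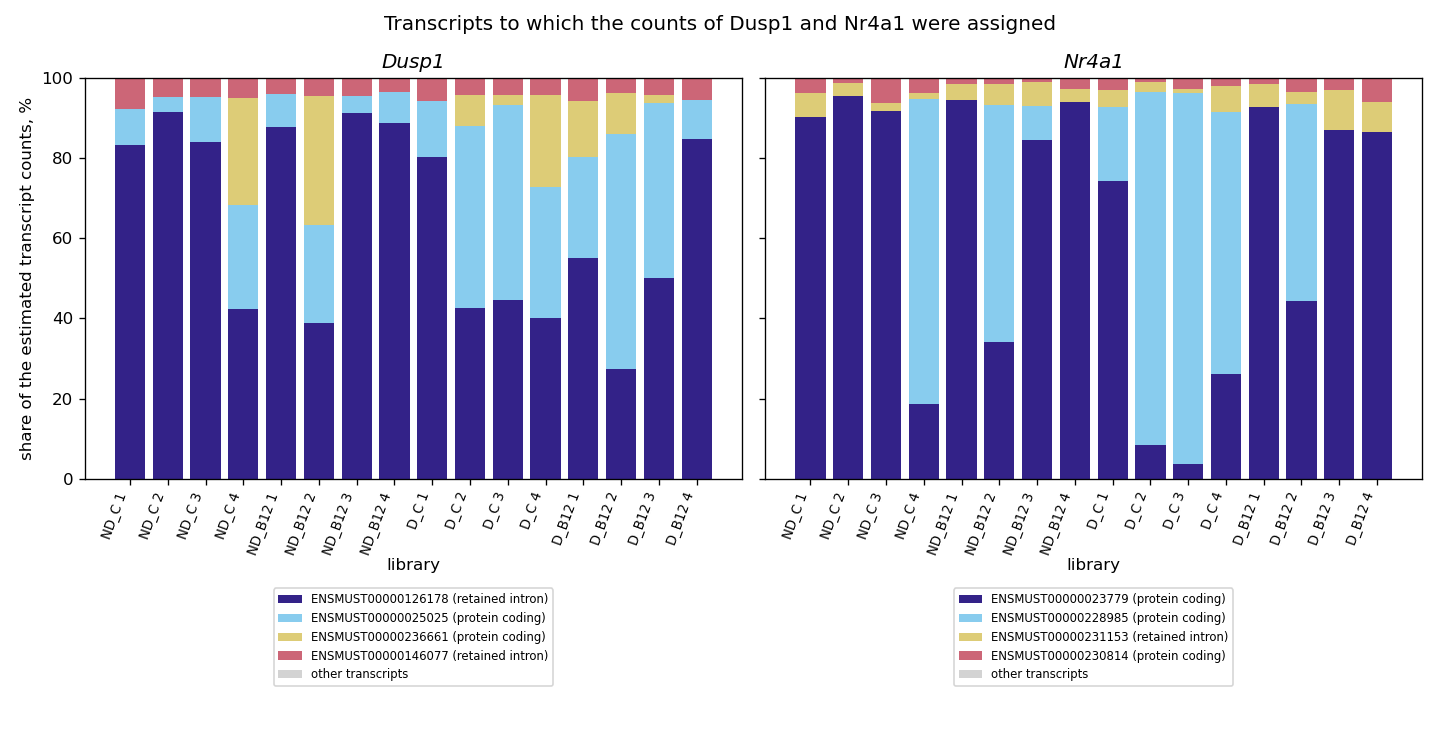
Share of the estimated transcript counts (y axis, %) by transcript (colours) for Dusp1 and Nr4a1 in 16 libraries (x axis). The upstream Nr4a1 form exceeds 49% in 6 libraries, which are the 6 with the lowest retained-intron share of Dusp1.

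Other early-response genes were counted from lists set beside the 10. Of 37 tested serum-response genes outside the 10, 29 had negative log2 fold changes for D_B12 minus D_C (median -0.23), and 10 of them had an unadjusted p below 0.05 in that direction, where 7.21% of all genes tested did, but none passed the test. Between untreated kidneys, 26 of the 37 had positive values for D_C minus ND_C (median 0.15), and 3 passed, where 1.66% of all genes tested passed. Gadd45b, a stress-induced regulator of DNA repair and MAP kinase signalling, rose by 0.81 (SE 0.19, edgeR adjusted p 0.0443), from 160.1 ± 44.9 to 280 ± 53.1 normalized counts (SD, n = 4). Btg1, an antiproliferative gene, rose by 0.42 (SE 0.10, edgeR adjusted p 0.0427). Hbegf, a ligand of the EGF receptor, fell by 0.64 on the log2 scale (SE 0.15, edgeR adjusted p 0.0443). Between B12-treated kidneys, Sik1, a kinase induced by cAMP, was the 1 gene of the list to pass, where 0.823% of all genes tested passed, at -0.53 (SE 0.11, edgeR adjusted p 0.0418). Over 24 alternative fits the call held in 11 for Gadd45b, Btg1 and Hbegf each and in 9 for Sik1, with the sign kept in all.

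Among close relatives of the 10, 1 gene passed the test. Of 13 AP-1 and ATF partners none passed in any simple comparison, and the nearest was Jund at 0.37 (SE 0.10, edgeR adjusted p 0.0604) in D_C minus ND_C, where Batf3 had -0.90 (SE 0.27). None of 6 other EGR and NR4A genes and EGR corepressors passed. Nab2, the corepressor that EGR1 induces, followed Egr1 in sign in all 4 simple comparisons, with 0.41 (SE 0.14) for ND_B12 minus ND_C and -0.34 (SE 0.14) for D_B12 minus ND_B12, whereas Nr4a3 had 0.97 (SE 0.38) in D_B12 minus D_C. Among 11 other dual-specificity phosphatases none passed, with Dusp4 at -0.50 (SE 0.16) and Dusp6 at -0.36 (SE 0.11) in D_B12 minus ND_B12. Of 5 other ZFP36-family and AU-rich element binding genes, Zfp36l2, a paralog of Zfp36 with the same activity, fell by 0.37 on the log2 scale in D_B12 against ND_B12 (SE 0.07, edgeR adjusted p 0.0290), a call that held in 15 of 24 alternative fits.

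Upstream of the 10, no gene of the signalling lists passed in a simple comparison. None of 11 SRF, ETS-partner and CREB genes passed, with Elk3 at 0.18 (SE 0.08) in D_C minus ND_C and Elk4 at -0.15 (SE 0.04) in D_B12 minus ND_B12. None of 22 MAP kinase cascade genes passed in a simple comparison. Mapk3, the gene of ERK1, was the nearest in the interaction at -0.43 (SE 0.09, edgeR adjusted p 0.0575), and Rps6ka1 had 0.60 (SE 0.18) in D_C minus ND_C. Of 10 inducible heat shock genes, 9 had negative values for D_C minus ND_C (median -0.32), and Hspe1, the mitochondrial co-chaperonin, passed at -0.29 (SE 0.07, edgeR adjusted p 0.0492), which held in 6 of 24 alternative fits. None of 10 glucocorticoid-induced genes passed, with Cdkn1a at 1.76 (SE 0.45, edgeR adjusted p 0.0703) in D_B12 minus ND_B12 and Per1, also a clock gene, at -0.74 (SE 0.24) in the same comparison.

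Markers of kidney and of other tissues were checked in each library. All 11 tubule and glomerulus markers were present, with a summed level of 12510.4 to 15804 CPM, and D_B12 (12510.4 to 13145 CPM) lay below ND_C and ND_B12 (14209 to 15804 CPM). Slc34a1, the proximal tubule phosphate transporter, was the most abundant of them. Aqp2, the collecting duct water channel, was the 1 kidney marker called in D_C minus ND_C, at 1.69 (SE 0.39, edgeR adjusted p 0.0436), held in 12 of 24 alternative fits and named after its value was seen. Adipocyte markers, led by Cfd, summed to 0.318 to 163.7 CPM and varied within every group, and the highest library was D_B12 2. Red blood cell genes, led by Hbb-bs, summed to 238 to 416 CPM and leukocyte markers, led by Ptprc, to 18.7 to 40.5 CPM, with ND_C 1 the highest. Adrenal markers, led by Star, summed to 3.88 to 7.02 CPM with Cyp11b1, Cyp11b2 and Th at 0 in every library. Skeletal muscle markers summed to 0.571 to 2.69 CPM with Tnnc2 at 0 in every library, and Actn3 was called in D_C minus ND_C at 1.96 (SE 0.44, edgeR adjusted p 0.0408), in 11 of 24 alternative fits. The part of these tissues in the values of the 10 genes was not tested.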

How the data were processed

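Total kidney RNA from 16 mice was sequenced as 50-base reads. Per the labels, the authors aligned the reads with STAR to GRCm39 and made estimated counts per gene and per transcript with StringTie and its prepDE script. The deposited gene and transcript tables hold these estimated counts as whole numbers, without normalization, and they were used as deposited. Because StringTie derives counts from coverage and read length, they approximate read numbers. The strandedness of the counting is not given in the sources used here, so reads of a gene and of an antisense partner cannot be told apart.

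Genes whose counts summed to 100 or more were tested with edgeR 4.0.16 in R 4.3.3 (TMM normalization, quasi-likelihood test, all 4 groups in one model, 12 residual degrees of freedom, Benjamini-Hochberg adjustment, threshold 0.05), and DESeq2 1.42.0, the tool of the study, was an alternative. A normalized count is the raw count over the size factor of its library. Those factors were obtained by the median-of-ratios method, not by TMM. Correlations used log2 CPM with a prior count of 2, centred on the labelled group. The code was tested on a set of simulated counts for D_C minus ND_C, drawn with edgeR's own estimates of the spread. There DESeq2 made more false calls than edgeR at the same threshold. Because the setting came from edgeR, it does not decide between the tools in these data. Gene positions, exon lengths and overlaps came from the GENCODE annotation of GRCm39, and promoters from RefSeq.

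The alternatives were other normalizations, no count filter, the compared groups alone, a replicate block, label date as a covariate, DESeq2, and each library left out. The 10 genes and all lists (AP-1 and ATF partners, other EGR and NR4A genes, serum-response genes, dual-specificity phosphatases, ZFP36 family, SRF and its partners, MAP kinase cascade, heat shock, glucocorticoid-induced genes, and markers of kidney, adipocytes, skeletal muscle, adrenal gland, leukocytes, red blood cells and vessels) were chosen with earlier results of these data known. From each list, genes that passed in a simple comparison are named, or else the 2 with the smallest p, and from each marker list the most abundant gene. The 10 genes most like the members were ranked by Pearson's r with the members' mean group-centred level.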

Additional observations from a re-analysis of the deposited data

Results flagged for a closer look

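In 5 of the 40 sets of 4 libraries (10 genes in 4 groups), 1 library stood apart from the other 3, with a gap, relative to the range, above Dixon's critical value, where chance gives about 1 in 20. Fosb did so in 3 groups, each time as a single high library: ND_C 2 had 54.7 normalized counts where the next had 30.9, D_C 2 had 42.3 where the next had 27.5, and D_B12 4 had 59.5 where the next had 28.1. Egr1 had 782 normalized counts in ND_C 4 and 667 in the next library of that group. Dusp1 had 6732 normalized counts in ND_B12 4, the library that was also highest for Zfp36, Egr1, Fos and Nr4a1, and 4169.7 in the next.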

How the results depend on the processing

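Of the log2 fold changes of the 10 genes and of the 8 other called genes, counting each alternative fit that kept all libraries once, 405 kept direction and side of the threshold, 33 lost a call, 4 gained one and 12 reversed. With 1 library left out, the numbers were 807, 86, 3 and 32. Only Ier2 in D_C minus ND_C and the 8 other called genes had a call to lose. Each of these calls held in 6 (Hspe1) to 15 (Zfp36l2) of 24 alternative fits, so the pooled numbers overstate how stable the calls were. Libraries with the same replicate number showed little likeness: 24 such pairs had correlations of deviations from -0.183 to 0.168, 3 of them above 0.1. Of 16 libraries, 5 correlated best with their own number. Whether animals were paired cannot be told from these values. With the replicate block, genes called numbered 269 for D_C minus ND_C, 25 for D_B12 minus ND_B12, 147 for the interaction and 478 for the average diabetes effect, and Fosb reversed to 0.060 in D_B12 minus ND_B12. Ier2 in D_C minus ND_C had an edgeR adjusted p of 0.0594 under the block.

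With the compared groups alone, 1 gene was called for D_B12 minus D_C and 242 for D_C minus ND_C, against none and 423. With label date as a covariate, calls were 204 for D_B12 minus D_C, 2 for D_C minus ND_C, 29 for D_B12 minus ND_B12 (against 209), 753 for the interaction (against none) and 0 for average diabetes (against 767). With no count filter they were 63 for D_C minus ND_C, 35 for D_B12 minus ND_B12 and 427 for average diabetes, and with upper-quartile normalization 18 for D_B12 minus ND_B12. DESeq2 called 670 for D_B12 minus D_C, 6 for ND_B12 minus ND_C, 1637 for D_C minus ND_C, 1189 for D_B12 minus ND_B12, 943 for the interaction, 1837 for average diabetes and 6 for average B12. With 1 library left out, calls ranged from 0 (without D_B12 2, among others) to 69 (without D_C 1) for D_B12 minus D_C, 0 to 2 for ND_B12 minus ND_C, 0 to 1552 for D_C minus ND_C, 0 to 441 for D_B12 minus ND_B12, 0 to 266 for the interaction and 235 to 1700 for average diabetes. The cause of these changes in the number of calls was not tested.

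Reversals with label date as a covariate were Fosb at -0.39 and Nr4a1 at 0.59 (D_B12 minus D_C), Atf3 at 0.19 and Zfp36 at -0.013 (D_C minus ND_C), Jun at 0.20 and Nr4a1 at 0.63 (D_B12 minus ND_B12) and Fosb at -0.13 (interaction). Fosb in D_B12 minus ND_B12, at -0.00, reversed in 16 of 24 alternatives, among them the groups alone (0.020), median-of-ratios size factors (0.0048), upper-quartile normalization (0.038) and DESeq2 (0.0055). With 1 library left out, D_B12 minus D_C ranged from -0.25 to 0.37 for Fosb and -0.25 to 0.15 for Nr4a1; ND_B12 minus ND_C from -0.22 to 0.34 for Fos, -0.42 to 0.16 for Fosb and -0.16 to 0.14 for Junb. D_C minus ND_C ranged from -0.47 to 0.0061 for Fosb and -0.094 to 0.16 for Dusp1. D_B12 minus ND_B12 ranged from -0.56 to 0.0040 for Fos, -0.40 to 0.31 for Fosb and -0.47 to 0.032 for Nr4a1, and the interaction from -0.027 to 0.54 for Fos and -0.14 to 0.57 for Fosb.

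Ier2 in D_B12 minus D_C was below 0.05 in 2 of 24 alternatives, DESeq2 (0.000996) and without D_C 1 (edgeR adjusted p 0.0485). Its interaction was below 0.05 in 4 of 23: DESeq2 (0.00177), label date (0.0268) and without D_C 1 (0.0396) or ND_B12 1 (0.0449). Fosb, with 16 to 55 counts per library, is the gene that depth limits most.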
